A study of Mus musculus with 6 samples.

Results

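The 10 genes described here mark the contractile wall cells of blood vessels: Acta2, Myh11, Tagln, Cnn1, Des, Mylk and Lmod1 of smooth muscle, and Rgs5, Cspg4 and Notch3 of pericytes, the mural cells of capillaries. They were chosen by symbol, and all 10 were found among the 54532 gene identifiers of the count table. The tissue was epididymal white fat, a visceral depot of male mice, taken after 16 weeks on a high-fat diet and sequenced as bulk RNA. The knockout group (3 libraries) carried floxed PD-1 alleles and Lyz2-Cre, a recombinase driven by the Lyz2 gene of macrophages and other myeloid cells, which is not a driver made for smooth muscle or pericytes. The control group (3 libraries) was made of littermates with the same floxed alleles and no Cre. Ages are not given. Whether the libraries are separate animals is not stated either, so p-values measure only the spread between these libraries, which may be technical.

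Smooth muscle shortens when myosin light chain kinase phosphorylates the light chain of smooth muscle myosin, which then pulls on actin filaments. Many genes of this machinery are switched on by serum response factor and its partner myocardin through a DNA element called the CArG box. Pericytes wrap the capillaries of fat, are held there by platelet-derived growth factor from the endothelium, and receive Notch signals through NOTCH3. The whole tissue was sequenced, so fewer mural cells and less RNA per mural cell cannot be told apart in any value below.

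Pdcd1, the gene of PD-1, did not check the labels: it had 19, 19 and 5 counts in the libraries labelled knockout, against 13, 0 and 0 in those labelled control. These counts cover the whole gene and all cells of the tissue, they were not lower in the knockouts, and every direction given here rests on the labels.

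Control replicate 2, titled HF_7690_eWAT, went against its tissue label. Its 10 hepatocyte markers summed to 221948 CPM (read counts relative to library size, scaled between libraries by the TMM method), against 125.6 to 8246 CPM in the 5 other libraries, where Cyp2e1 alone gave 8076 CPM of the sum in control replicate 1. Its 10 adipocyte markers summed to 889 CPM, against 18540 to 36863 CPM. Hepatocyte markers were also present in control replicate 3 and knockout replicate 2, with list means of 8.53 and 5.96 log2(CPM + 1), against 1.33 to 3.22 in the 3 remaining libraries. The fold changes of the 10 genes are therefore given with and without control replicate 2. Library totals were 20108185 to 27225533 counts.

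The 10 genes together held 0.0727%, 0.0722% and 0.0923% of the counts of knockout replicates 1 to 3, against 0.0473%, 0.00780% and 0.0943% in control replicates 1 to 3. The 95% exact Clopper-Pearson intervals, which cover counting error only, ran from 0.0711% to 0.0936% over the knockouts. Over the controls the lowest was 0.00742% to 0.00819% in control replicate 2, and the highest was 0.0931% to 0.0955% in control replicate 3. Knockout and control shares overlapped, because control replicate 3 lay above all knockouts.

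**Figure D1:**
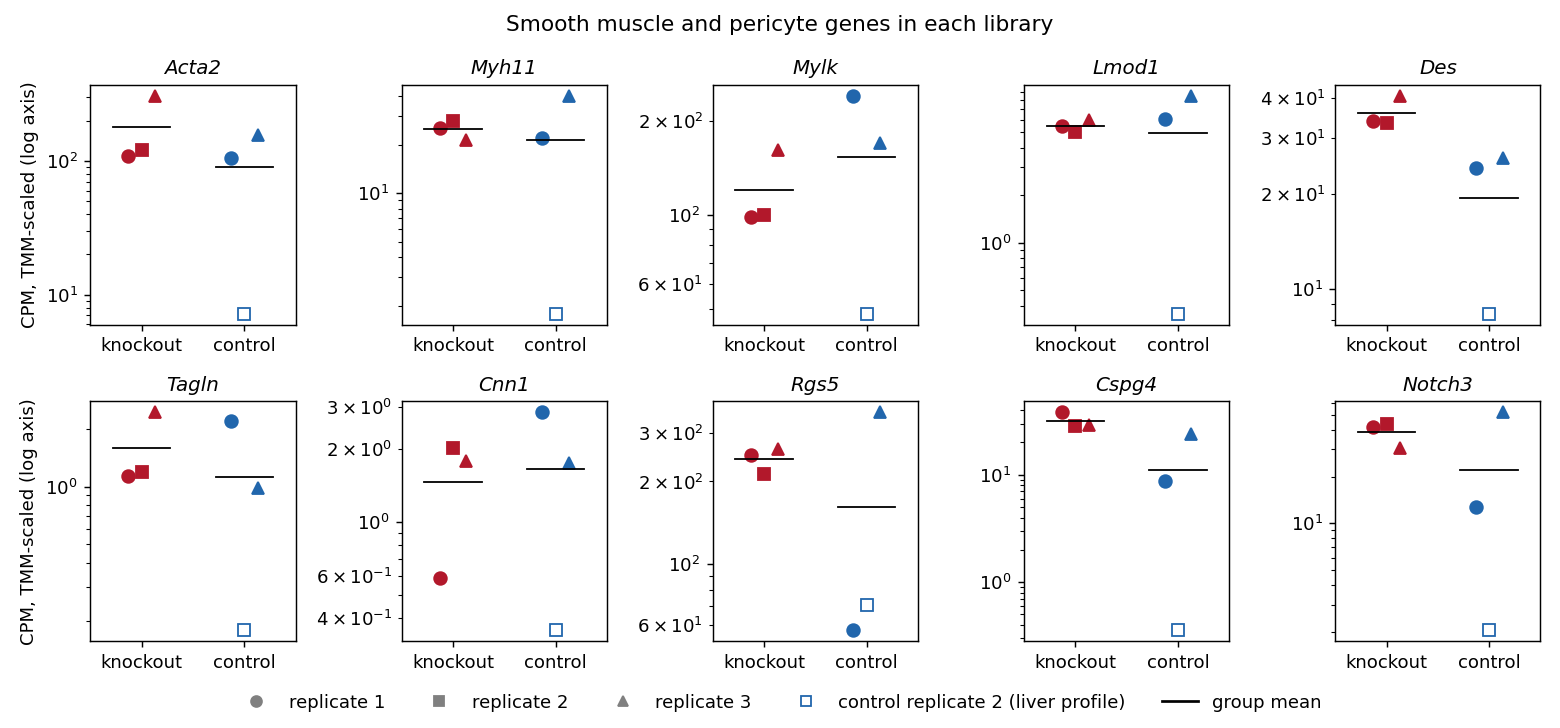
Level of each gene in each library, as CPM scaled by TMM on a log axis, with knockout libraries on the left and control libraries on the right of each panel; symbols mark replicates, bars the group mean, and the open square control replicate 2. Des and Cspg4 lie higher in every knockout than in every control, and control replicate 2 is the lowest library for 9 of the 10 genes, Rgs5 being the exception.

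Between genes, levels can be compared per length, as the authors' FPKM within a library. Acta2, the smooth muscle actin, was the highest of the 10 in 5 libraries, at 54.5, 62.6 and 150.1 FPKM in the knockouts against 51.6 and 78.9 FPKM in control replicates 1 and 3. Rgs5, a brake on G protein signalling that marks pericytes, came second in all 3 knockouts (43.2 to 50.5 FPKM) and in control replicate 3 (70.6 FPKM). Acta2 and Rgs5 were close in knockout replicate 1 (54.5 and 49.1 FPKM) and in control replicate 3 (78.9 and 70.6 FPKM), so their order there was not clear of the spread between libraries. Control replicate 1 broke the order: Mylk, the myosin light chain kinase, was second there at 18.5 FPKM, and Rgs5 stood at 10.9 FPKM. Des, Mylk, Notch3, Myh11 and Cspg4 filled the middle, at 2.12 to 12.5 FPKM in the knockouts. Lmod1, Tagln and Cnn1 were the lowest in every knockout, at 0.192 to 1.31 FPKM.

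Acta2 (chromosome 19, 34241090 to 34255590, minus strand, mm10) encodes the actin of the contractile filament. It had 108.7, 121.4 and 305.9 CPM in knockout replicates 1 to 3, against 105.7, 7.20 and 156.5 CPM in control replicates 1 to 3. Only knockout replicate 3 stood above control replicate 3, and the groups overlapped. Knockout over control, the log2 fold change came to 0.99 ± 1.01 (SE; adjusted p 0.807 by edgeR's quasi-likelihood test), and 0.45 ± 0.52 without control replicate 2 (adjusted p 0.816). It was 0.38 without knockout replicate 3 and 1.66 without control replicate 3, neither called. Acta1, the skeletal muscle actin whose coding sequence is close to that of Acta2, was also highest in knockout replicate 3, at 10.8, 14.8 and 90.3 CPM in knockouts against 22.7, 1.42 and 31.2 CPM in controls. Reads shared between the actin genes cannot be assigned with certainty, and their part in the Acta2 value was not tested. The other 11 skeletal muscle markers summed to 2.45, 4.59 and 6.24 CPM in knockouts and 2.58, 2.76 and 3.15 CPM in controls.

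The promoters of Acta2 and Mylk, both of the contractile machinery, are shown because the genes ran differently across libraries. Acta2 was highest in knockout replicate 3 and Mylk in control replicate 1. Sequences are from RefSeq on GRCm38.p6, 250 bases before to 50 after the start, 5′ to 3′ on the gene's strand, at chr19:34255324-34255623, minus strand for Acta2 and chr16:34784700-34784999, plus strand for Mylk. The whole Mylk window lies inside the gene. For both genes the start used lies inside the annotated gene and is not the first one annotated, and positions are counted from the start used. Capitals mark CArG boxes with at most 1 base off in the central A/T core, and GGGCGG on either strand, the GC box of housekeeping-type promoters.
Acta2: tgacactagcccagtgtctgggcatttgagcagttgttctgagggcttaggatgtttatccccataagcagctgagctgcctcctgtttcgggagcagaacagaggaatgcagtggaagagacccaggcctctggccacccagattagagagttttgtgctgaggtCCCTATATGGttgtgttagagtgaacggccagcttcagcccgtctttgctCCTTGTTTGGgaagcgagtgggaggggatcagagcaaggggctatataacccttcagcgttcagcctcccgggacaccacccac
Mylk: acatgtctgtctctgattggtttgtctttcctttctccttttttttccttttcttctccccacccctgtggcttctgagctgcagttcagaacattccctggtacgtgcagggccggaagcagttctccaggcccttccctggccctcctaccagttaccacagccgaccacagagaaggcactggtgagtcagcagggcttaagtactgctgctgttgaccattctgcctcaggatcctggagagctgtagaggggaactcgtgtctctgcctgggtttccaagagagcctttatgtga
Acta2 held 2 such CArG boxes, from -84 to -75 and from -34 to -25 before that start, and Mylk held neither motif. Of 32851 RefSeq promoter windows of this length, 9.98% held a CArG box with at most 1 base off and 1.63% an exact one. Among the 8 of the 10 genes with a window in the table, 1 (Acta2) held the looser form and 0 the exact form. A match here is a description of letters, and CArG boxes outside the window were not searched.

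Mylk (chromosome 16, 34745210 to 35002420, plus strand, mm10) had 98.7, 100.2 and 160.7 CPM in knockouts, against 240.1, 48.3 and 169.6 CPM in controls. Each knockout lay below control replicates 1 and 3, and the overlap came from control replicate 2 alone. Its log2 fold change was −0.35 ± 0.61 (SE, edgeR adjusted p 0.902) and −0.77 ± 0.33 without control replicate 2 (adjusted p 0.563). Without control replicate 1, the highest library, the sign turned to 0.14. Mylk is not exclusive to smooth muscle, since a long form of the kinase is known in endothelium.

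Myh11 (chromosome 16, 14194535 to 14291372, minus strand), the smooth muscle myosin heavy chain and the most specific contractile marker of the set, had 25.3, 28.02 and 21.4 CPM in knockouts, against 22.0, 1.78 and 40.1 CPM in controls. All knockouts lay below control replicate 3, and knockout replicate 3 was also just below control replicate 1. The log2 fold change was 0.22 ± 0.91 (SE, edgeR adjusted p 0.966), and −0.30 ± 0.32 without control replicate 2 (adjusted p 0.798). The ratio of Myh11 to Acta2 counts within a library was 0.233, 0.231 and 0.0701 in knockouts and 0.208, 0.247 and 0.257 in controls, lowest in knockout replicate 3, the library with the highest Acta2.

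Lmod1 (chromosome 1, 135324807 to 135368065, plus strand), a nucleator of actin filaments, had 5.48, 5.04 and 5.93 CPM in knockouts, against 6.02, 0.356 and 8.49 CPM in controls. As for Mylk, each knockout lay below control replicates 1 and 3. Its log2 fold change was 0.14 ± 0.94 (SE, edgeR adjusted p 0.981) and turned to −0.39 ± 0.32 without control replicate 2 (adjusted p 0.743).

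Tagln (chromosome 9, 45929619 to 45936058, minus strand) and Cnn1 (chromosome 9, 22099216 to 22109630, plus strand) encode the actin-binding proteins transgelin and calponin, textbook markers of smooth muscle. Both were low in every library. Tagln had 35, 34 and 63 counts in knockouts, against 59, 2 and 27 counts in controls. Cnn1 had 18, 58 and 46 counts in knockouts, against 76, 4 and 48 counts in controls. The groups overlapped for both genes, and Tagln in control replicate 2 was under the detection floor of 3 counts. The log2 fold changes were 0.47 ± 0.89 for Tagln and −0.19 ± 0.87 for Cnn1 (SE, edgeR adjusted p 0.915 and 0.971), and −0.01 ± 0.64 and −0.63 ± 0.68 without control replicate 2.

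For every Acta2 count there were 0.0105, 0.00981 and 0.00798 Tagln counts in knockouts and 0.0209, 0.0247 and 0.00631 in controls. In the GENCODE vM21 annotation, 67.9% of the 1988 exonic bases of Tagln lie within exons of other genes, 1241 bases in the antisense gene Gm48529 and 108 in Pcsk7 (both on the plus strand). No source used here gives the strand setting of the counting. Reads from the shared bases therefore cannot be told apart, and their part in the low Tagln level was not tested. Gm48529 itself was counted 25, 33 and 9 times in knockouts, against 10, 29 and 36 times in controls. Cnn1, which was as low, shares 0% of its exonic bases, as do Acta2, Myh11, Rgs5, Lmod1 and Cspg4. Shared bases made up 5.86% of the exonic bases of Des, 6.03% of those of Notch3 and 6.85% of those of Mylk.

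Des (chromosome 1, 75360329 to 75368579, plus strand) encodes desmin, the intermediate filament of muscle cells, pericytes and hepatic stellate cells. It had 33.9, 33.4 and 40.6 CPM in knockouts, against 24.0, 8.36 and 25.8 CPM in controls. The groups did not overlap, with or without control replicate 2. Means were 36.0 ± 4.04 CPM in knockouts and 19.4 ± 9.61 CPM in controls (SD, n = 3 each). The log2 fold change was 0.89 ± 0.45 (SE, edgeR adjusted p 0.585) and 0.54 ± 0.21 without control replicate 2 (adjusted p 0.551). Of the 10 genes it had the smallest unadjusted p in both edgeR fits, 0.0963 and 0.0464, and it did not pass the test over all genes. In 18 alternative settings its log2 fold change was 0.53 to 1.15 and its adjusted p 0.287 to 1.00.

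All 3 pericyte genes were lower in control replicate 1 than in each knockout and than in control replicate 3. Rgs5 (chromosome 1, 169655501 to 169695813, plus strand) had 249.95, 213.8 and 262.5 CPM in knockouts, against 57.2, 70.5 and 357.5 CPM in controls. The 3 knockouts were close together, and the controls spanned a far wider range on both sides of them. Its log2 fold change was 0.58 ± 0.75 (SE, edgeR adjusted p 0.861) and 0.24 ± 0.70 without control replicate 2 (adjusted p 0.933).

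Cspg4 (chromosome 9, 56865033 to 56899870, plus strand) encodes the NG2 proteoglycan of the pericyte surface. It had 38.1, 28.2 and 29.0 CPM in knockouts, against 8.79, 0.356 and 24.0 CPM in controls. Every knockout lay above every control, though knockout replicate 2 and control replicate 3 were near each other. In control replicate 2 it had 4 counts. Means were 31.8 ± 5.52 CPM in knockouts and 11.1 ± 11.99 CPM in controls (SD, n = 3 each). Its log2 fold change was 1.52 ± 1.12 (SE, edgeR adjusted p 0.713) and 0.97 ± 0.45 without control replicate 2 (adjusted p 0.576), the largest of the 10 genes in both fits. Over 18 alternative settings the log2 fold change was 0.96 to 2.77, highest without control replicate 3, and the adjusted p 0.261 to 1.00.

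Notch3 (chromosome 17, 32120820 to 32166852, minus strand), the mural cell receptor for Jagged and Delta ligands, had 42.0, 43.9 and 30.5 CPM in knockouts, against 12.7, 2.05 and 51.9 CPM in controls. Control replicate 3 was the highest library, so the groups overlapped. Its log2 fold change was 0.80 ± 0.99 (SE, edgeR adjusted p 0.851) and 0.29 ± 0.57 without control replicate 2 (adjusted p 0.899). The other controls moved the values of Notch3 and Rgs5 both ways. Without control replicate 1 the log2 fold changes were 0.52 for Notch3 and 0.18 for Rgs5, and without control replicate 3 they were 2.38 and 1.92, none of them called (lowest adjusted p with 1 library left out, 0.355).

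The promoters of the 3 pericyte genes are shown because these genes were all lower in control replicate 1 than in control replicate 3. Windows, source and capitals are as for Acta2, at chr1:169655251-169655550, plus strand, chr9:56864854-56865153, plus strand and chr17:32166841-32167140, minus strand. The start used for Rgs5 is the first one annotated. That for Cspg4 lies inside the annotated gene, and that for Notch3 lies just upstream of it.
Rgs5: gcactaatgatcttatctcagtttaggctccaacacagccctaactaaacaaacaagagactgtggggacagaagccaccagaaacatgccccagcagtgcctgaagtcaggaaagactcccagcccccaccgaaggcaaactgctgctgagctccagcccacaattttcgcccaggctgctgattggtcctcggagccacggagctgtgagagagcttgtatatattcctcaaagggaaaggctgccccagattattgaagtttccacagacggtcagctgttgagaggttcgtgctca
Cspg4: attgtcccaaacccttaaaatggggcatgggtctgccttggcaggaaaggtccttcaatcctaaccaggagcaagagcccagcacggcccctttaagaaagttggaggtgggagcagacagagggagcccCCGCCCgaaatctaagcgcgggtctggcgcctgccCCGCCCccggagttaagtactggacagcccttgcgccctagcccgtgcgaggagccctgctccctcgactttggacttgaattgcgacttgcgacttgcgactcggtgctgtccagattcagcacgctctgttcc
Notch3: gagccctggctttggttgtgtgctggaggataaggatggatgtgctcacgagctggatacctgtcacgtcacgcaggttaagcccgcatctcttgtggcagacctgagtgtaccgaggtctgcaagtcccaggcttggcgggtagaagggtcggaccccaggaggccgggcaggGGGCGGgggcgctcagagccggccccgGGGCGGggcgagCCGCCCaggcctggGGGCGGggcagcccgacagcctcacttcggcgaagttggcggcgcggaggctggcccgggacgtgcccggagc
GGGCGG or its reverse complement occurred 2 times in Cspg4 and 4 times in Notch3, and not in Rgs5. It was present in 4 of the 8 windows found (also Des and Lmod1), against 35.7% of all 32851 windows. TGGGAA, the core letters bound by the Notch partner RBPJ, occurred on either strand in 1 of the 8, that of Acta2, where it overlaps a CArG box, and in 25.6% of all windows. TATAAA was in 0 of the 8 and in 13.6% of all.

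The means of the pericyte and contractile genes parted in control replicate 1. The 3 pericyte genes averaged 6.23, 6.03 and 5.98 log2(CPM + 1) in knockouts, against 4.31, 2.74 and 6.28 in controls. The 7 other genes averaged 3.96, 4.13 and 4.50 in knockouts, against 4.32, 2.07 and 4.36 in controls. The pericyte genes thus stood 1.47 to 2.27 above the contractile ones in knockouts and −0.01, 0.67 and 1.92 above them in controls, on the log2(CPM + 1) scale. Control replicate 1 lay within the range of the knockouts in the contractile mean and below all of them in the pericyte mean. Single contractile genes differed there. Acta2 and Des, the latter also made by pericytes, were lower than in each knockout. Mylk, Lmod1 and Cnn1 were higher than in each knockout, and Myh11 and Tagln lay within their range.

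**Figure D2:**
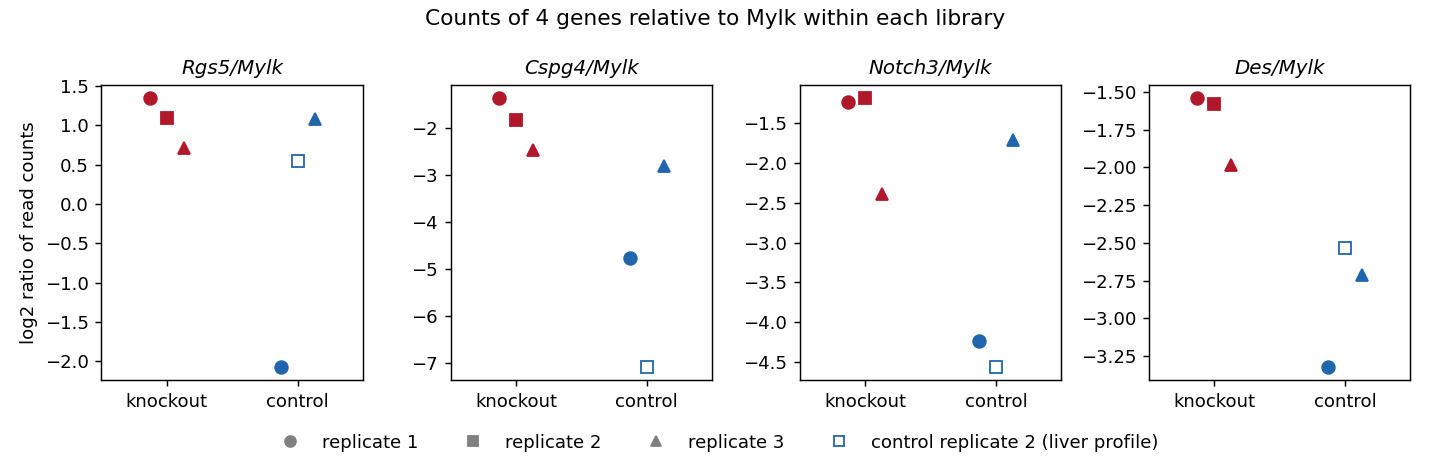
Log2 ratio of read counts of Rgs5, Cspg4, Notch3 and Des to Mylk within each library, knockouts left and controls right, with the open square for control replicate 2; such a ratio does not depend on the scaling between libraries. For Des/Mylk the knockouts lie at −1.98 to −1.54 and the controls at −3.32 to −2.53.

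Ratios within a library do not depend on scaling, but they depend on the denominator. Mylk was itself highest in control replicate 1, which lowers ratios to Mylk there. For every Mylk count there were 2.53, 2.13 and 1.63 Rgs5 counts in knockouts, against 0.238, 1.46 and 2.11 in controls, so the low value was that of control replicate 1. Relative to Acta2 there were 2.30, 1.76 and 0.858 Rgs5 counts per count in knockouts, against 0.541, 9.79 and 2.28 in controls. Control replicate 1 was lowest there too, but knockout replicate 3 was near it. Des counts per Mylk count were 0.343, 0.334 and 0.253 in knockouts, against 0.1002, 0.173 and 0.152 in controls, with no overlap. Des and Mylk are both counted among the contractile genes above, so that ratio does not compare pericyte with contractile genes. Cspg4 counts per Mylk count were 0.386, 0.281 and 0.181 in knockouts, against 0.0366, 0.00737 and 0.142 in controls, also with no overlap. These pairs were chosen with the counts in view and carry no test. Notch3 and Rgs5 kept similar proportions in the libraries other than control replicate 2, at 0.116 to 0.205 Notch3 counts per Rgs5 count in knockouts and 0.222 and 0.145 in control replicates 1 and 3. In control replicate 2 the ratio was 0.0290.

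**Figure D3:**
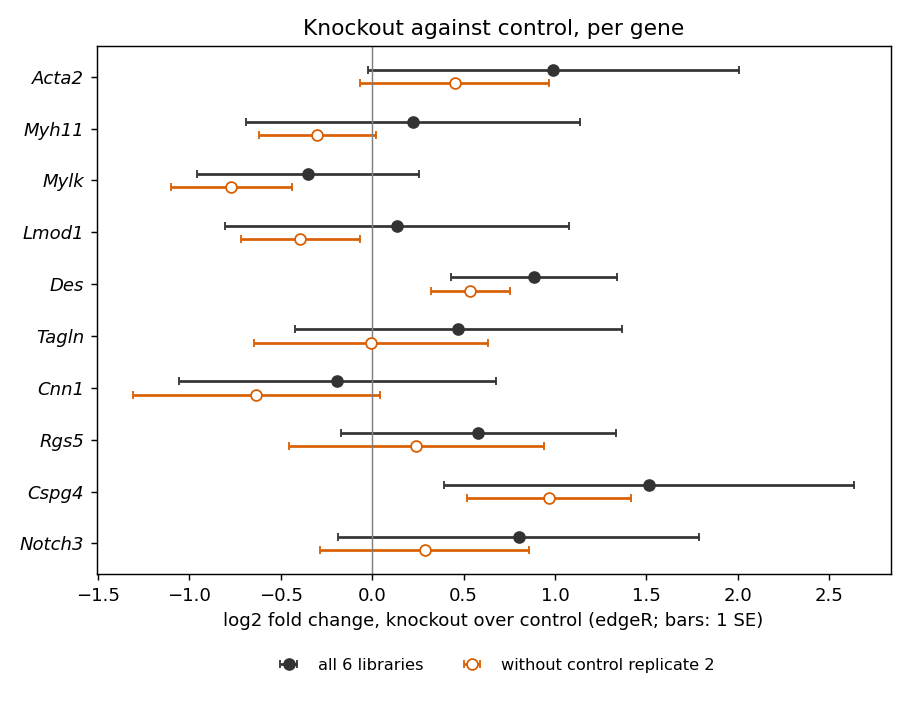
Log2 fold change of each gene, knockout over control, from edgeR with all 6 libraries (filled) and without control replicate 2 (open), with bars of 1 SE. Des and Cspg4 lie above 0 and Mylk below 0 in both fits, and Myh11, Lmod1 and Tagln change sign.

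None of the 10 genes passed the test. All 10 were above the filter on low counts in both sample sets. By edgeR 0 of them had an adjusted p under 0.05, and none had an unadjusted p under 0.05 with all 6 libraries. Of all 15928 genes tested, 0% were called and 8.65% had an unadjusted p under 0.05 (1377 genes, smallest adjusted p 0.560). Without control replicate 2, 1 of the 10 (Des) had an unadjusted p under 0.05, against 8.96% of 16729 genes, and again 0% were called. At an unadjusted p under 0.05 DESeq2 had 0 of the 10 with all 6 libraries, against 13.2% of genes, and 2 (Des and Mylk) without control replicate 2, against 13.1%. After adjustment DESeq2 called 0 of the 10 in either sample set, while it called 3.37% of genes with all 6 libraries (525 of 15580) and 2.98% without control replicate 2 (470 of 15746). Limma-voom called 0 of the 10 and 0% of all genes, with 983 genes (6.17%) at an unadjusted p under 0.05, none of them among the 10.

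How many genes lay above 0 depended on control replicate 2. With all 6 libraries, 8 of the 10 genes had a log2 fold change above 0, with a median of 0.53, against 48% of all genes tested and a median of −0.03. Without control replicate 2, 5 of the 10 were above 0 with a median of 0.12, against 47.1% and −0.04. Every knockout lay above every control for 2 of the 10 genes with all 6 libraries (Des and Cspg4), against 9.57% of all genes, and for the same 2 without control replicate 2, against 13.6%. Every knockout lay below both remaining controls for 2 of the 10 (Mylk and Lmod1), against 11.9%, and for 0 of the 10 with all 6 libraries, against 5.56%.

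Control replicate 2 did not lower the 10 genes evenly. Relative to the median of the 5 other libraries it stood at 1.26% for Cspg4, 4.87% for Notch3, 5.93% for Acta2, 6.00% for Lmod1 and 7.02% for Myh11. Most of these values rest on few counts in control replicate 2: 4 each for Cspg4 and Lmod1, 20 for Myh11 and 23 for Notch3. Mylk stood at 30.1%, Rgs5 at 28.2% and Des at 25.0%. Reln and Lrat, genes of hepatic stellate cells (the pericyte-like cells of liver, which also make desmin), had 50.6 and 24.8 CPM in control replicate 2. In the other libraries they reached at most 8.30 and 0.586 CPM. These are the 2 of smallest p in a stellate list of 7 genes that also holds Des and Rgs5. The list averaged 4.43 log2(CPM + 1) in control replicate 2, against 2.88 to 3.49 in the other libraries. With all 6 libraries its log2 fold changes were above 0 for 3 genes and below 0 for 4, against 48% of all genes above 0. The part of stellate cells in the Des and Rgs5 values was not tested.

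**Figure D4:**
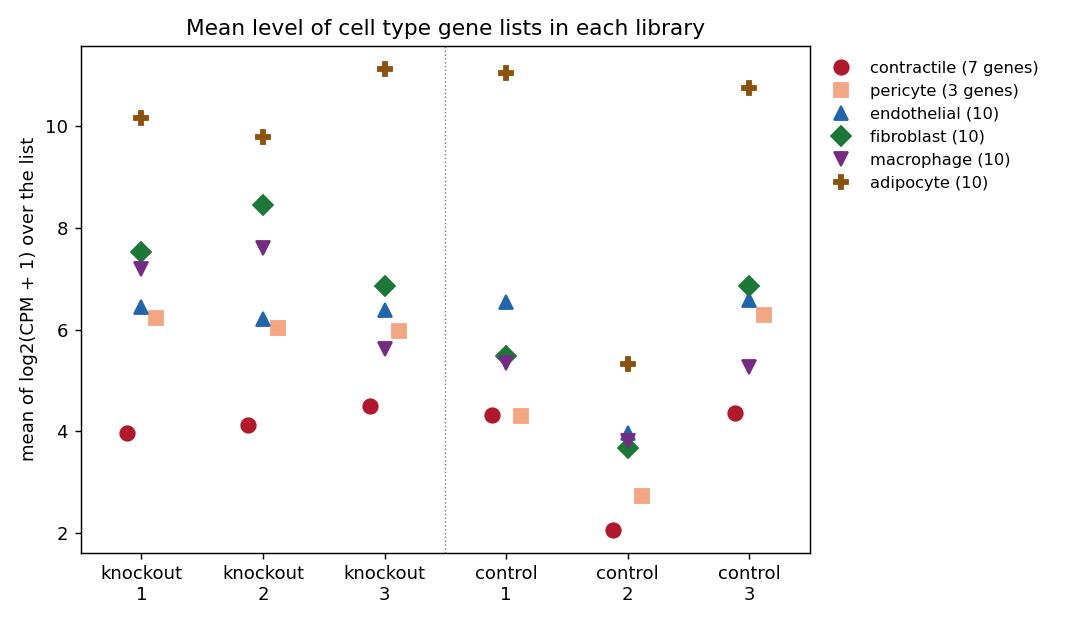
Mean of log2(CPM + 1) over the 7 contractile and 3 pericyte genes and over marker lists of 4 other cell types, in each library, knockouts left of the dotted line and controls right. Pericyte genes lie near the endothelial markers in 4 libraries and 2.24 below them in control replicate 1.

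The mean of the endothelial markers, genes of the cells that pericytes cover, did not share the low value of control replicate 1. The 10 endothelial genes averaged 6.45, 6.20 and 6.39 log2(CPM + 1) in knockouts, against 6.55, 3.97 and 6.58 in controls. Single genes differed in control replicate 1. Tie1 had 52.7 CPM there, against 93.0, 82.1 and 78.9 CPM in knockouts and 93.9 CPM in control replicate 3. Erg, at 21.2 CPM, was also lower there than in each knockout and control replicate 3. Kdr was highest there (169.9 CPM), and Tek, at 40.2 CPM, lay within the range of the knockouts. In control replicate 1 the pericyte genes stood 2.24 below the endothelial list, against 0.17 to 0.42 below it in knockouts and 0.30 below it in control replicate 3. Fibroblast markers averaged 7.52, 8.46 and 6.86 in knockouts, against 5.49, 3.68 and 6.86 in controls, so control replicate 1 was low in these too. Macrophage markers averaged 7.20, 7.61 and 5.61 in knockouts, against 5.35, 3.81 and 5.26 in controls. The part of these cell types in the values of the 10 genes was not tested.

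Other genes of the contractile apparatus did not pass the test either. Of 25 further contractile genes, 24 were tested, 0 passed, and 16 had a log2 fold change above 0 with a median of 0.17. Without control replicate 2, 11 of 25 were above 0 with a median of −0.10. Of all genes tested, 0% passed in either edgeR fit, so 0 passing is no trait of this list or those below. Above 0 were 48% of all genes, or 47.1% without control replicate 2. Tpm1, which encodes tropomyosin along the actin filament, had 101.7, 122.7 and 92.4 CPM in knockouts, against 79.1, 59.6 and 80.7 CPM in controls, with no overlap (0.53 ± 0.29 SE on the log2 scale, adjusted p 0.605 by edgeR, and 0.42 ± 0.25 without control replicate 2). Flna, the actin crosslinker filamin A, had 413.4, 610.5 and 241.4 CPM in knockouts, against 186.6, 21.6 and 358.9 CPM in controls (1.16 ± 0.94 SE, and 0.65 ± 0.51 without control replicate 2). Sorbs2, an adaptor of the actin cytoskeleton, separated the other way, with all knockouts under all controls, at 14.01, 12.7 and 11.4 CPM in knockouts, against 15.9, 47.7 and 21.4 CPM in controls. Its log2 difference was −1.16 ± 0.46 (SE; adjusted p 0.560 by edgeR), or −0.54 ± 0.26 without control replicate 2. Itga8, an integrin subunit of smooth muscle, likewise had all knockouts under all controls, at 0.294, 0.946 and 0.892 CPM in knockouts, against 1.01, 8.01 and 1.57 CPM in controls (−2.30 ± 0.99 SE, adjusted p 0.560 by edgeR, and −0.84 ± 0.72 without control replicate 2). With all 6 libraries, every knockout lay above every control for 1 of the 24 tested genes, against 9.57% of all genes. Every knockout lay below every control for 2 of the 24, against 5.56% of all genes.

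Among the transcriptional regulators of smooth muscle, 12 of 14 were tested and 0 passed, with 9 above 0 and a median of 0.10, or 4 of 13 and −0.18 without control replicate 2. The shares of all genes above 0 were 48% and 47.1%. Every knockout lay below every control for 2 of the 12 and above for 0, against 5.56% and 9.57% of all genes. Mrtfa, a myocardin-related partner of serum response factor, had 23.9, 38.1 and 14.2 CPM in knockouts, against 6.58, 4.00 and 15.1 CPM in controls (1.56 ± 0.61 SE on the log2 scale, adjusted p 0.560 by edgeR, and 1.25 ± 0.56 without control replicate 2). Gata6, a transcription factor of vascular smooth muscle, ran the other way, at 5.03, 10.5 and 8.995 CPM in knockouts, against 16.7, 12.2 and 11.97 CPM in controls (−0.74 ± 0.39 SE, edgeR adjusted p 0.593, and −0.80 ± 0.40 without control replicate 2), with each knockout below each control.

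Of 18 further pericyte genes all were tested, 0 passed, and 13 were above 0 with a median of 0.40, or 10 of 18 and 0.17 without control replicate 2. The shares of all genes above 0 were 48% and 47.1%. Every knockout lay above every control for 2 of the 18 and below for 0, against 9.57% and 5.56% of all genes. Ndufa4l2, a mitochondrial protein enriched in pericytes, had 14.7, 13.6 and 21.4 CPM in knockouts, against 6.36, 2.13 and 10.6 CPM in controls, with no overlap (1.37 ± 0.60 SE, edgeR adjusted p 0.560, and 0.98 ± 0.35 without control replicate 2). Cox4i2, an alternative subunit of cytochrome oxidase, had 4.37, 2.94 and 5.12 CPM in knockouts, against 1.35, 0.801 and 3.92 CPM in controls (1.02 ± 0.69 SE, and 0.67 ± 0.58 without control replicate 2). Agtr1a, an angiotensin receptor, was lower in most knockouts, at 10.9, 8.37 and 13.7 CPM, against 18.8, 58.4 and 12.6 CPM in controls (−1.45 ± 0.62 SE, edgeR adjusted p 0.560, and −0.51 ± 0.33 without control replicate 2), with knockout replicate 3 above control replicate 3. Vtn, vitronectin, is also a plasma protein of liver, and had 18.7, 54.5 and 16.2 CPM in knockouts, against 6.92, 3242 and 174.2 CPM in controls, so control replicate 1 lay below all knockouts and the other controls above them (−5.27 ± 2.06 SE, edgeR adjusted p 0.560, and −1.56 ± 1.24 without control replicate 2).

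In the Notch and platelet-derived growth factor pathways all 21 genes were tested and 0 passed. Of these, 18 were above 0 with a median of 0.51, and 15 with a median of 0.27 without control replicate 2. The shares of all genes above 0 were 48% and 47.1%. Every knockout lay above every control for 3 of the 21 and below for 0, against 9.57% and 5.56% of all genes. Pdgfb, the endothelial ligand that recruits pericytes, had 72.9, 79.0 and 53.9 CPM in knockouts, against 32.0, 4.63 and 53.1 CPM in controls, with knockout replicate 3 and control replicate 3 close together (1.19 ± 0.78 SE, edgeR adjusted p 0.673, and 0.71 ± 0.32 without control replicate 2). Pdgfa, a related ligand, had 25.1, 22.7 and 22.1 CPM in knockouts, against 14.7, 18.0 and 16.3 CPM in controls (0.51 ± 0.25 SE, edgeR adjusted p 0.568, and 0.60 ± 0.22 without control replicate 2), with no overlap. Rbpj, the DNA-binding partner of activated Notch, had 83.9, 76.1 and 43.3 CPM in knockouts, against 32.7, 23.04 and 49.5 CPM in controls (0.95 ± 0.41 SE, and 0.74 ± 0.38 without control replicate 2).

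Markers of other muscle were low. Skeletal muscle markers other than Acta1 reached at most 2.31 CPM in any library, and the skeletal list had 1 to 3 of its 12 genes under 3 counts in knockouts and 4 to 9 in controls. The 8 cardiac markers summed to 15.4 to 23.1 CPM in knockouts and 2.22 to 63.5 CPM in controls, where Myl4 made up most of the highest sum (61.6 CPM in control replicate 1). The 8 mesothelial markers summed to 3.62 to 60.9 CPM in knockouts and 20.01, 730.4 and 91.3 CPM in controls, where Krt8 (424.5 CPM) and Krt18 (294.5 CPM) made up most of the sum of control replicate 2. The 10 epididymis markers summed to 2.17 to 5.39 CPM in knockouts and 6.85 to 39.5 CPM in controls, of which Crisp1 made up 38.6 CPM in control replicate 1.

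Over the 5 libraries without control replicate 2, the 6 of 9550 genes whose log2(CPM + 1) ran most like the mean of the 10 were Ulk2, Pter, Nr1d2, Notch4, Stbd1 and Jag1, with Pearson's r of 0.987 to 0.995. Jag1, a Notch ligand, had 42.0, 42.9 and 50.4 CPM in knockouts, against 30.0 and 50.9 CPM in control replicates 1 and 3, on the scaling of those 5 libraries. With 5 libraries and this many candidates, such an r is a description only.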

How the data were processed

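Per the submitters' processing notes, the tools were fastp, HISAT2 2.0.5, StringTie 1.3.3b and, for counting, featureCounts 1.5.0-p3, and the build was mm10. Neither strand setting nor annotation release is stated there. The authors deposited raw counts per gene for 6 libraries, used for all tests, and FPKM values. With control replicate 1 set to 1, the FPKM were 0.829 to 1.90 times the values that scaling by library totals would give, highest in control replicate 2. FPKM served for levels between genes and as an alternative. The lengths implied by FPKM match GENCODE vM21 exonic lengths for 8 of the 10 genes. For Acta2 they imply 1781 bases, against 2196, and for Notch3 8044, against 8089.

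Symbols came from GENCODE vM21. Genes kept by filterByExpr were tested by robust quasi-likelihood in edgeR 4.0.16 under R 4.3.3 (TMM factors: control replicate 2, 0.559; other libraries, 0.982 to 1.25), with Benjamini-Hochberg adjustment over all genes at 0.05. SE is the log2 fold change over the root of F. Alternatives used DESeq2 1.42.0, limma 3.58.1, other scalings and filters, a threshold of 0.1 on the main fit, and libraries left out. Exact permutation of 3 against 3 libraries cannot go below 0.1. The tests were also run on simulated counts, with the same mean profile in all libraries apart from planted changes. That run held no library like control replicate 2, so it cannot decide between edgeR and DESeq2 for these data. Named genes are the 10 members, up to 4 of smallest p per list and the 6 most alike; the overlapping genes were added with their values in view. The members and lists were chosen with earlier results of these data known. Replicates are numbered in record order. Figures used matplotlib 3.10.9.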

Additional observations from a re-analysis of the deposited data

How the results depend on the processing

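Of 180 log2 fold changes (10 genes in 18 alternatives), 167 kept their sign and stayed outside the threshold, and 13, in 5 genes, changed sign. The alternative with a threshold of 0.1 reuses the main fit, so its 10 values could not change sign. The adjusted p over all 180 was 0.255 to 1.00. Without control replicate 2, Myh11 turned to −0.30, Lmod1 to −0.39 and Tagln to −0.01 (DESeq2 on the same libraries gave −0.31, −0.40 and −0.010). Without control replicates 2 and 3, Tagln stood at −0.46 and Lmod1 at −0.12, where the lone control is assumed to vary like the knockouts. Without control replicate 1, Mylk turned to 0.14 and Cnn1 to 0.44. Cnn1 also turned to 0.20 without knockout replicate 1, 0.049 with total counts and 0.0056 with FPKM and a pseudocount of 0.1. The cause was not tested. By edgeR with 1 or more libraries left out the ranges were −0.30 to 1.06 for Myh11, −0.46 to 1.38 for Tagln, −0.94 to 0.44 for Cnn1, −0.99 to 0.14 for Mylk and −0.39 to 0.76 for Lmod1. With 1 library left out, the median of the 10 genes ranged from 0.12 to 1.10, the highest without control replicate 3, and the count of genes called stayed at 0 to 0, for the 10 genes and for the whole table. DESeq2 called 525 genes of the table with all 6 libraries and 470 without control replicate 2, where edgeR called 0. Total counts in place of TMM moved the median of all genes to 0.34 and that of the 10 to 0.73. A term for the title number range, 90xx against the others, left Rgs5 at 1.12, Cspg4 at 2.02 and Notch3 at 1.53, none of them called. The other titles joined a range held only by knockouts and a range held only by controls. The term therefore cannot separate those ranges from genotype. Whether the title number marks a batch is not stated. No paired analysis was possible because the labels give the groups no shared replicate numbers. Tagln and Cnn1 rest on 2 to 76 counts a library, and Lmod1 and Cspg4 on 4 each in control replicate 2.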
